A study of Mus musculus with 35 samples.

Results

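The response of the mouse hippocampus to pilocarpine-induced status epilepticus (SE) was compared between 8 h and 1 h after seizure induction. For each gene the quantity of interest was the difference of differences, that is, the log2 fold change of SE over control at 8 h minus the log2 fold change of SE over control at 1 h. All libraries of these times in the gene count table were used, 10 of 19 mRNA libraries and of 35 libraries in the series, which also holds later times and small RNA. They comprised 2 controls and 3 SE libraries at 1 h, and 3 controls and 2 SE libraries at 8 h. A negative difference means that SE moved a gene further up, or less far down, at 1 h than at 8 h.

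The libraries came from C57BL/6j mice, male and female, 6 to 7 weeks old, and the labelled tissue of every group was hippocampus. Mice of the SE groups were injected intraperitoneally with pilocarpine, a muscarinic agonist, at 350 mg/kg, with smaller top-up doses until seizures appeared, whereas controls received saline vehicle. Both SE and control mice were first given scopolamine. At 1 h the seizures were under way, and by 8 h the SE phase was usually over. The 8 h difference therefore compares mice after seizures with their own time-matched controls, and pilocarpine itself cannot be told apart from the seizures that it induced. P-values measure the spread between these samples, which the labels number as replicates without stating that each is a separate mouse.

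Rapid, or immediate early, genes are transcribed within minutes of strong neuronal firing by transcription factors that are already present in the cell, such as CREB and SRF. Many of their transcripts are short-lived, and several of their products, including dual-specificity phosphatases and mRNA decay factors, shut the same pathways down again. A slower programme of delayed genes follows over hours and encodes secreted, synaptic and growth-related proteins, while injured neural tissue also activates gp130 and STAT3 signalling and reactive astrocyte genes.

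Total counts ranged from 8503816 to 28465548 per library, and 17536 to 22422 genes had at least 1 count. Markers of hippocampal neurons such as Prox1, Neurod6 and Wfs1 were present in all 10 libraries, at levels given here as CPM, that is, counts scaled to a common library size. Of the thalamic markers, Gbx2 did not exceed 0.200 CPM, whereas Prkcd lay between 17.3 CPM and 56.6 CPM, highest in 8 h control 1, and Tcf7l2 between 6.00 CPM and 12.7 CPM. Each library label begins with a prefix, G511, G369 or G317. These were taken as 3 batches, although the labels do not say what they stand for. No batch holds both times with both treatments: G511 holds 1 h control 1, 1 h SE 3 and 8 h control 1, G369 the other 1 h libraries, and G317 the other 8 h libraries. The summed level of 20 choroid plexus markers was 461 CPM in 8 h control 1 and 1333 CPM in 8 h control 3, against 2610.0 to 5497 CPM in the other 8. The mRNAs of the mitochondrial genome took 3.27% and 3.76% of counts in the 8 h SE libraries and 6.42% to 10.8% in the others. Short genes, with exons of at most 2128 bases in all, stood a median 0.23 and 0.32 log2 units above their means over all libraries in 8 h controls 2 and 3, and between -0.12 and 0.03 in the other 8. One library, 1 h control 2, given as male in the study's sample table, held 22835 counts of Xist, which is expressed in females. The mean level of these choroid markers was entered as a covariate, chosen after seeing the data. Then 24 genes passed at 1 h and 0 at 8 h, against 32 and 4 without. With sex as a covariate 24 and 3 passed. Sex was taken there from the study's sample table, in which 1 h control 2 is male, and not from the counts. The part of the mitochondrial share and of gene length in the results was not tested.

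**Figure D1:**
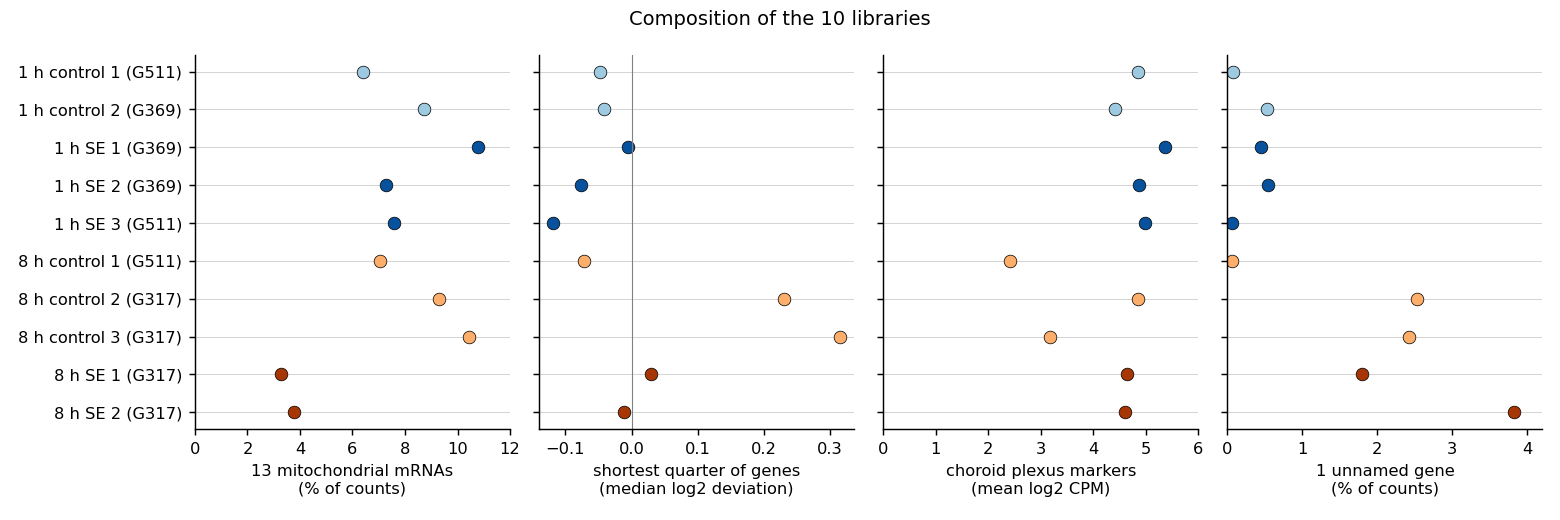
Composition of each of the 10 libraries, with its batch in parentheses. From left to right the panels give the share of counts in 13 mitochondrial mRNAs, the median log2 deviation of these short genes from their means, the mean log2 CPM of the choroid plexus markers, and the share of counts in 1 gene without a symbol, which lay between 0.0610% and 0.0708% in G511, between 0.454% and 0.543% in G369 and between 1.80% and 3.82% in G317.

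The response to SE differed between the times for 2 genes of the rapid programme, the phosphatase gene Dusp1 and the matricellular gene Cyr61. Both rose in SE at 1 h, and neither passed the test at 8 h. Of 16736 genes tested with edgeR's quasi-likelihood test, 2 had a lower response at 8 h than at 1 h at a Benjamini-Hochberg adjusted p under 0.05 (0.0120% of genes tested) and 0 a higher one (0%). At an unadjusted p under 0.05, 604 genes were lower (3.61%) and 551 higher (3.29%). These shares of all genes stand beside the counts given for each gene list below. The likelihood ratio test in edgeR called 31 genes lower and 5 higher, and DESeq2 30 lower and 4 higher. Called by both were also Ier2, Egr1, Npas4, Zfp36, Zfp36l2, Sik1, Nr4a1, Gadd45g, Ppp1r15a, mt-Nd1, mt-Nd2, mt-Nd5, mt-Cytb, mt-Tw, Rpl21, Myo1d, Klf4, Nr4a2, Thbs1, RP23-330G24.3, Gm10123 and Gm10175 on the lower side and Nptx2, Klf10, Gm17388 and 9130020K20Rik on the higher side. Across all genes tested the median difference was 0.0055. The call count rested in part on single libraries: it was 187 without 8 h control 1, 15 without 1 h SE 1 and 6 without 1 h control 2, and 2 without any one of the other 7. With the mean level of the choroid plexus markers as a covariate, a setting chosen after seeing the data, Dusp1 and Cyr61 were again the 2 genes that passed.

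Dusp1 encodes a phosphatase that inactivates MAP kinases. Its level was 12.1 and 13 CPM in the 1 h controls, 88, 91.8 and 87.6 in the 1 h SE libraries, 12.8, 17.6 and 18.6 in the 8 h controls and 19.8 and 19.4 in the 8 h SE libraries. All 3 SE libraries at 1 h stood well above the other 7, and the 8 h SE libraries lay just above the highest 8 h control. The log2 response was 2.83 at 1 h and 0.27 at 8 h, a difference of -2.55 ± 0.25 (adjusted p = 0.00202), where ± gives the standard error of a log2 difference here and throughout. Cyr61 encodes a secreted matricellular protein, also known as Ccn1. Its level was 3.37 and 3.24 CPM in the 1 h controls, 52.6, 64.7 and 59.6 in the 1 h SE libraries, 2.06, 2.04 and 1.57 in the 8 h controls and 3.11 and 3.72 in the 8 h SE libraries. The 1 h SE libraries again stood apart, and at 8 h both SE libraries lay slightly above all 3 controls. The response was 4.16 at 1 h and 0.88 at 8 h, a difference of -3.28 ± 0.34 (adjusted p = 0.00202). The positions in NCBIM37 are chromosome 17 from 26642535 to 26645464 for Dusp1 and chromosome 3 from 145309935 to 145312949 for Cyr61, both on the minus strand. Both genes kept an adjusted p under 0.05 in all 22 alternative fits, among them every fit without one library, in which the difference ranged from -2.71 to -2.45 for Dusp1 and from -3.47 to -3.19 for Cyr61.

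The 250 bases before the RefSeq start of these genes (GRCm38.p6, minus strand, printed 5′ to 3′) are shown because these were the genes that passed and rapid genes are controlled through such regions. Dusp1 lies at chr17:26508473-26508722, with a full cAMP response element, TGACGTCA, in capitals, 143 to 136 bases before the start. Cyr61 lies at chr3:145649986-145650235, with a TATA box, TATAAA, in capitals, 25 to 20 bases before the start.
Dusp1: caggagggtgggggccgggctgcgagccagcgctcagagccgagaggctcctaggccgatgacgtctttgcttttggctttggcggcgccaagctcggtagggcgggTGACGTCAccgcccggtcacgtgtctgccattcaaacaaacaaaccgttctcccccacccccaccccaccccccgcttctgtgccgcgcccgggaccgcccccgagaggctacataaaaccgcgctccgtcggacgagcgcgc
Cyr61: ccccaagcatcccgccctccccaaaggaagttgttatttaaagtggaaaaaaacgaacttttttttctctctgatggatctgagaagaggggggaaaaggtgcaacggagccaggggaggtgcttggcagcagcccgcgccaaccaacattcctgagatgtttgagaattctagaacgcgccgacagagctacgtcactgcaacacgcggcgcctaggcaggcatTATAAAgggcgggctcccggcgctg
Both strands of a window from 250 bases before to 50 after the start were searched. TGACGTCA, which reads the same on both strands, was present in 2.03% of 27025 gene windows and in 6 of 22 windows of the rapid signalling and decay genes (27.3%), those of Arl4d, Btg2, Dusp1, Errfi1, Plk2 and Ppp1r15a. It was also in 6 of 58 windows of ribosomal protein genes (10.3%) and 2 of 28 of delayed activity genes (7.14%). TATAAA was present in 15.7% of all windows and in 8 of the same 22 (36.4%). Among rapid transcription factors, 1 of 22 windows held TGACGTCA, that of Maff, and 6 of 22 (27.3%) held the EGR motif GCGGGGGCG, which was in 3.31% of all windows, 10.7% of those of delayed and 8.62% of those of ribosomal protein genes. These are matches of letters and not measured binding sites.

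**Figure D2:**
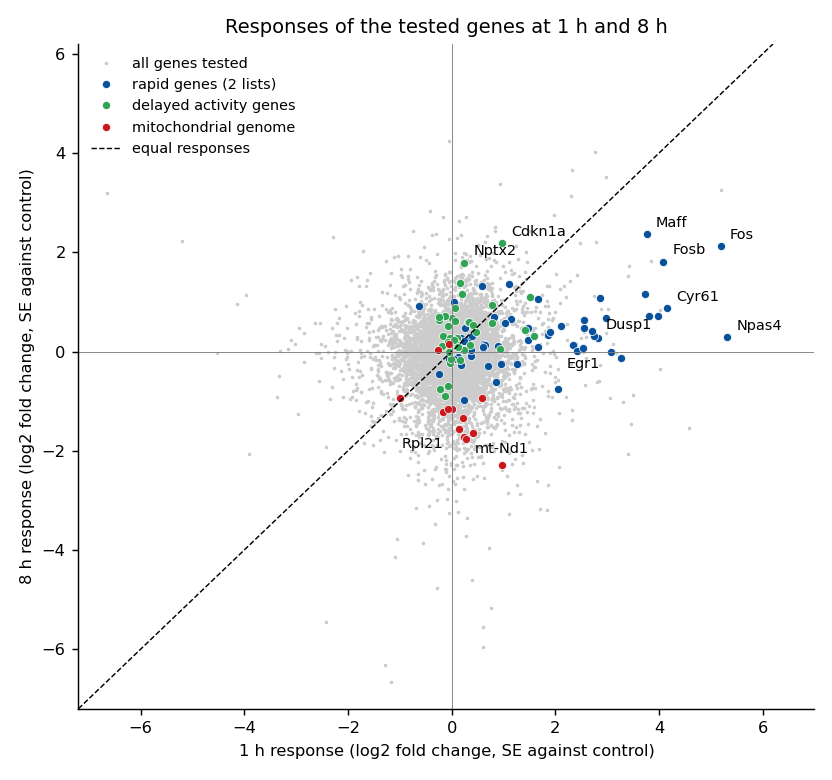
Log2 fold change of SE over control at 8 h (vertical axis) against that at 1 h (horizontal axis) for the 16736 genes tested, with the broken line where both are equal. Most rapid genes lie to the right and below the line, with Dusp1 at 2.83 and 0.27 and Cyr61 at 4.16 and 0.88, and most mitochondrial genes lie below it with 1 h values near 0.

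Across genes the estimated 1 h and 8 h responses in this fit had a Pearson r of 0.062 and a Spearman rho of 0.067. These values are over 16736 genes, which are not independent and share library depth. Few of the genes passed at either time, and noise in estimates from 2 or 3 libraries per group can hold such values near 0. The values therefore cannot show whether the responses were related. Of the 604 genes lower at an unadjusted p under 0.05, 479 had a larger response in size at 8 h and 125 at 1 h, and of the 551 higher ones 373 and 178. At 1 h, 29 genes had a higher level in SE (0.173% of genes tested) and 3 a lower one (0.0179%), Gm17388, RP23-395H6.2 and a gene without a symbol. At 8 h 3 genes were higher (0.0179%), Nptx2, Cdkn1a and Lcn2, and 1 was lower (0.00598%), Rpl21. Of the 29 genes higher at 1 h, 26 had a positive log2 response at 8 h and 0 passed in the quasi-likelihood test there. At an unadjusted p under 0.05 there were 7 of the 29, against 2145 of all 16736 genes tested. The likelihood ratio test called 3 of the 29 at 8 h, against 162 of all genes, and DESeq2 1, against 247. With batch as a covariate 3 of the 29 passed at 8 h, Adamts1 (0.96), Maff (2.03) and Apold1 (1.46). In that fit 2297 of all genes passed at 8 h, 1089 of them higher. The median response of the 29 was 2.71 at 1 h, with a range from 1.32 to 5.32. At 8 h it was 0.41, with a range from -0.52 to 2.37, against a median of 0.0026 over all genes tested. The 29 were chosen by their 1 h values in these same libraries, which can raise the 1 h median. The 2 medians are therefore no test of a fall between the times. Within batch G317 alone, the median at 8 h was 0.39. A log2 response above 1 at 8 h was seen in 6 of the 29, Fos, Fosb, Maff, Atf3, Apold1 and 1700016P03Rik. The count of 1 h calls was 133 without 1 h control 2, of which 116 were lower, 8 without 1 h control 1, 20 without 1 h SE 2 and 21 without 1 h SE 3. The count of 8 h calls was 1637 without 8 h control 1, 26 without 8 h control 2, 1 without 8 h SE 1, and 0 without 8 h control 3, 8 h SE 2 or 1 h SE 2.

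Nearly all rapid transcription factors had a negative difference. Of 29 tested, 28 had such a value, and the median was -1.21, with medians of 1.15 at 1 h and 0.22 at 8 h. In the difference 0 passed, 15 had an unadjusted p under 0.05 in the negative direction and 1, Klf10, in the positive. The likelihood ratio test called 8 lower and 1 higher, and DESeq2 6 and 1. At 1 h 11 of the 29 passed in the quasi-likelihood test, all of them higher in SE. Npas4, a neuron-specific factor that responds to calcium entry, had 5.91 and 6.91 CPM in the 1 h controls, 56.4, 381 and 333 in the 1 h SE libraries, 11.6, 11.8 and 14.3 in the 8 h controls and 16.9 and 14.2 in the 8 h SE libraries. Library 1 h SE 1 lay far below the other 1 h SE libraries but above every control. The difference was -5.02 ± 0.84, the most negative of the list (adjusted p = 0.158). Egr1, a zinc finger factor of the same programme, had 89.6 and 99.4 CPM in the 1 h controls, 294, 603 and 565 in the 1 h SE libraries, 78.8, 109 and 106 in the 8 h controls and 115 and 99.7 in the 8 h SE libraries. At 8 h its SE and control libraries overlapped, and the difference was -2.23 ± 0.36 (adjusted p = 0.143). For Ier2, Junb and the nuclear receptor gene Nr4a1 the differences were -3.40 ± 0.54, -2.44 ± 0.53 and -2.22 ± 0.47, with 8 h responses of -0.13, 0.32 and 0.12 and adjusted p values of 0.143, 0.391 and 0.389.

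The AP-1 components Fos and Fosb and the small MAF factor Maff had 8 h log2 responses near 2, none of which passed in the fit without batch. With batch as a covariate that of Maff passed (2.03, adjusted p = 0.0343). Fos had 6.62 and 5.30 CPM in the 1 h controls, 83.7, 306 and 265 in the 1 h SE libraries, 2.53, 3.37 and 2.49 in the 8 h controls and 16.8 and 8.72 in the 8 h SE libraries. Both 8 h SE libraries exceeded all 3 of their controls, which were themselves below the 1 h controls. The response of Fos was 5.20 at 1 h (adjusted p = 0.000777) and 2.13 at 8 h (adjusted p = 0.168), and the difference was -3.07 ± 0.72 (adjusted p = 0.467). Fosb had 10.3 and 6.52 CPM in the 1 h controls, 35.7, 232 and 159 in the 1 h SE libraries, 5.32, 6.83 and 6.09 in the 8 h controls and 27.7 and 16 in the 8 h SE libraries, again with no overlap at either time, and its difference was -2.27 ± 0.83 (adjusted p = 0.683). For Maff the levels were 0.591 and 0.392 CPM in the 1 h controls, 7.84, 4.97 and 7.28 in the 1 h SE libraries, 0.333, 0.532 and 0.923 in the 8 h controls and 2.78 and 3.07 in the 8 h SE libraries. These are few counts, and the responses of 3.77 and 2.37 gave a difference of -1.40 ± 0.75 (adjusted p = 0.731). Egr2 and Egr3, relatives of Egr1, had differences of -3.09 ± 1.81 and -0.50 ± 0.40 with 8 h responses of 0.71 and 0.65, and neither had an unadjusted p under 0.05. Egr4 had a difference of -2.30 ± 0.71 (adjusted p = 0.683).

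Klf10, a zinc finger repressor linked to TGF beta signalling, was the 1 member with a positive difference. It had 43.1 and 29.6 CPM in the 1 h controls, 24.8, 23.2 and 22.5 in the 1 h SE libraries, 16, 20.5 and 16.3 in the 8 h controls and 42.2 and 25.7 in the 8 h SE libraries. The 1 h SE libraries lay below both 1 h controls and the 8 h SE libraries above all 8 h controls. The difference was 1.55 ± 0.32 (adjusted p = 0.324). Its 1 h response was -0.93 within batch G511 and -0.30 within G369.

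Signalling and mRNA decay genes of the rapid programme included both genes that passed. Of 30 tested, 25 had a negative difference, 2 passed and 18 had a negative value at an unadjusted p under 0.05, against 1 positive, Ier5 (0.96). The median was -1.12, from 1.48 at 1 h to 0.32 at 8 h, and 14 members passed at 1 h. The decay factor Zfp36, which binds AU-rich elements of cytokine and immediate early transcripts, had 2.19 and 2.65 CPM in the 1 h controls, 13.1, 22.6 and 26 in the 1 h SE libraries, 2.66, 4.79 and 5.63 in the 8 h controls and 3.00 and 4.93 in the 8 h SE libraries. At 8 h its SE and control values overlapped, and the difference was -3.09 ± 0.56 (adjusted p = 0.178). Its relative Zfp36l2 had a difference of -1.58 ± 0.29 (adjusted p = 0.178), from 1.67 at 1 h to 0.09 at 8 h. Sik1, a salt-inducible kinase that restrains CREB coactivators, had 15.6 and 15.5 CPM in the 1 h controls, 52.1, 54.8 and 62.6 in the 1 h SE libraries, 10.4, 16.3 and 14.7 in the 8 h controls and 18.4 and 16.2 in the 8 h SE libraries. Its 8 h groups lay within a few CPM of each other, and the difference was -1.53 ± 0.28 (adjusted p = 0.182). Arc, which encodes a postsynaptic protein that promotes AMPA receptor uptake, kept 8 h SE levels of 99.8 and 71.8 CPM above 8 h controls at 51.5, 57.9 and 56, against 124, 485 and 445 in SE and 53 and 67 in controls at 1 h. The difference for Arc was -1.91 ± 0.58 (adjusted p = 0.683). The growth arrest gene Gadd45g had log2 responses of opposite sign, with -0.75 at 8 h and 2.05 at 1 h and a difference of -2.80 ± 0.60 (adjusted p = 0.391), whereas its relative Gadd45b had -0.44 ± 0.41. Ctgf, in the same family as Cyr61, had a difference of -0.79 ± 0.41 and 8 h controls at 29.3, 18.4 and 16.2 CPM against 8 h SE at 26.5 and 20.1. Ier3 had -1.0 ± 0.73, with all libraries under 10 CPM, and Rasd1 -0.51 ± 0.26, and neither reached an unadjusted p under 0.05.

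**Figure D3:**
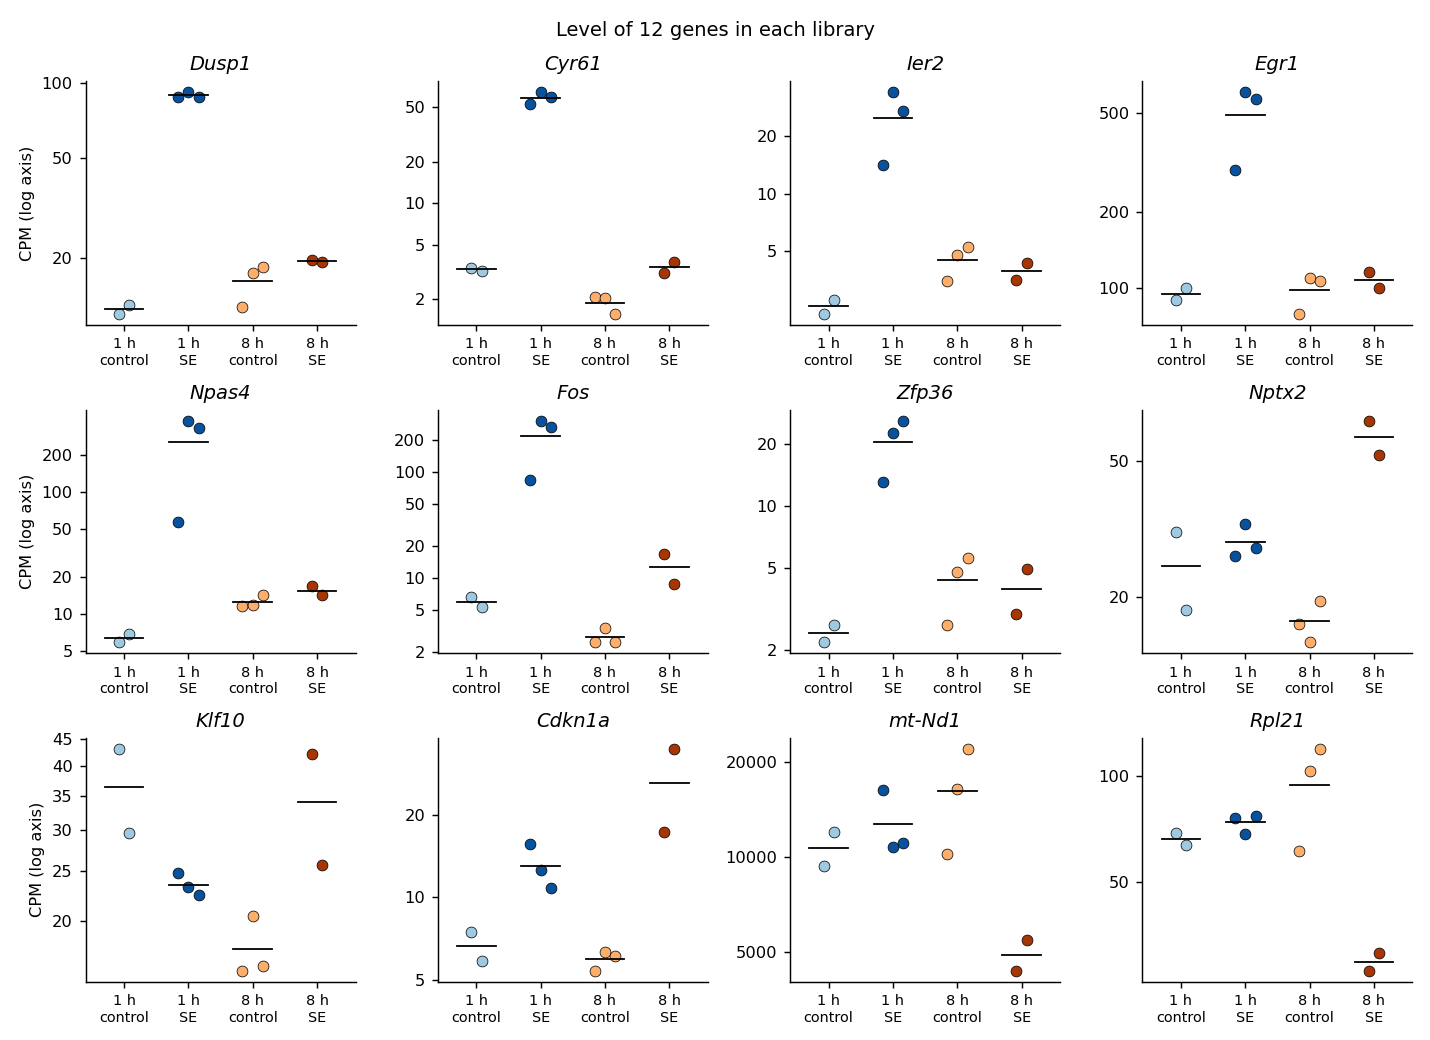
Level of 12 genes in each of the 10 libraries in CPM, on log axes, with a bar at the group mean. Dusp1, Cyr61, Ier2, Egr1, Npas4, Fos and Zfp36 have their highest values in the 1 h SE libraries, and Nptx2 and Cdkn1a in the 8 h SE libraries, where mt-Nd1 and Rpl21 have their lowest.

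Of 21 MAP kinase feedback genes tested, 3 had a negative difference at an unadjusted p under 0.05, Dusp1, Errfi1 and Dusp6, and 1 of them passed, with a list median of 0.01. Over all genes tested, 3.61% were negative at that level. Errfi1, an inhibitor of EGF receptors, had a difference of -1.24 ± 0.35 (adjusted p = 0.683). Dusp6, the ERK-specific phosphatase, had 36.5 and 41.5 CPM in 1 h controls, 64, 139 and 118 in 1 h SE, 35.3, 27.6 and 31.2 in 8 h controls and 37.7 and 42.5 in 8 h SE. The 8 h SE libraries exceeded their controls by a small margin, and the difference was -1.10 ± 0.36 (adjusted p = 0.683). Dusp10, which acts on p38 and JNK, had -0.98 ± 0.48 (unadjusted p = 0.0612).

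Delayed activity genes had more positive than negative differences, although 0 of 39 passed in either direction in the quasi-likelihood test. At an unadjusted p under 0.05, 9 were positive and 1, Ptgs2 (-1.29), was negative, against 3.29% and 3.61% of all genes tested. The likelihood ratio test and DESeq2 each called 1 member higher, Nptx2. The list median was 0.16, from 0.07 at 1 h to 0.31 at 8 h, where Nptx2 and Cdkn1a passed. Nptx2, or neuronal pentraxin 2, a secreted protein that clusters AMPA receptors, had 30.9 and 18.2 CPM in the 1 h controls, 26.4, 32.7 and 27.8 in the 1 h SE libraries, 16.7, 14.7 and 19.5 in the 8 h controls and 65.9 and 52.2 in the 8 h SE libraries. The 2 SE libraries at 8 h were the highest of all 10, while the 1 h groups overlapped. The response was 0.24 at 1 h and 1.79 at 8 h (adjusted p = 0.0333), and the difference was 1.55 ± 0.31 (adjusted p = 0.307). Cdkn1a, the p21 cell cycle inhibitor, had 7.45 and 5.84 CPM in the 1 h controls, 15.7, 12.6 and 10.8 in the 1 h SE libraries, 5.39, 6.30 and 6.09 in the 8 h controls and 17.3 and 34.9 in the 8 h SE libraries. Its SE libraries exceeded controls at both times without overlap, with responses of 0.98 and 2.18 and a difference of 1.20 ± 0.41 (adjusted p = 0.683).

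The neurotrophin gene Bdnf had 41.1 and 56 CPM in the 1 h controls, 51.3, 59 and 41.4 in the 1 h SE libraries, 43.9, 31.7 and 27.2 in the 8 h controls and 75.3 and 52.4 in the 8 h SE libraries. Its 1 h groups overlapped, both 8 h SE libraries exceeded the 8 h controls, and the difference was 0.82 ± 0.33 (adjusted p = 0.691). Homer1, a postsynaptic scaffold, had 104, 87.8 and 78.4 CPM in 8 h controls and 146 and 129 in 8 h SE, and 181 and 152 in 1 h controls and 167, 164 and 192 in 1 h SE. Thus the 8 h controls were lower than every 1 h library, and the 8 h SE libraries did not exceed any 1 h library. The difference for Homer1 was 0.54 ± 0.21 (adjusted p = 0.691). The sorting receptor gene Sorcs3 (0.67 ± 0.26) and the prohormone convertase gene Pcsk1 (0.97 ± 0.40) had positive values at unadjusted p = 0.0231 and 0.0311. Of 23 neuropeptide and granin genes, 4 were positive at an unadjusted p under 0.05, Pdyn, Vgf, Pcsk1 and Bdnf, and 1 negative, Chgb (-0.39), with a median of -0.15. The shares of all genes tested were 3.29% positive and 3.61% negative. For Pdyn, the precursor of dynorphin, the difference of 1.10 ± 0.45 combined a negative 1 h response (-0.82) with a small positive 8 h response (0.27). Its 1 h response was -1.07 within batch G511 and -0.49 within G369. Vgf levels were 95.5, 189 and 210.0 CPM in 8 h controls, where the G511 library was far below the 2 of G317, and 307 and 232 in 8 h SE.

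Among gp130, STAT3 and acute phase genes the feedback inhibitor Socs3 had a negative and the receptor Osmr a positive difference. Of 21 tested, 0 passed, 5 had a positive difference at an unadjusted p under 0.05, Osmr, Stat3, Stat5a, Ptpn11 and Cebpa, and 1 a negative one, Socs3, with a median of 0.17. Over all genes tested, 3.29% were positive and 3.61% negative at that level. Stat5a had few counts, at most 3.58 CPM in any library. Socs3, which inhibits JAK kinases bound to gp130, had 0.945 and 0.539 CPM in the 1 h controls, 3.17, 5.46 and 5.88 in the 1 h SE libraries, 2.00, 2.04 and 1.85 in the 8 h controls and 2.44 and 2.69 in the 8 h SE libraries. The controls at 8 h were above those at 1 h, and the difference was -2.31 ± 0.60 (adjusted p = 0.595). Osmr, the oncostatin M receptor, had 4.90 and 8.43 CPM in the 1 h controls, 7.12, 10.5 and 4.87 in the 1 h SE libraries, 5.99, 5.41 and 4.80 in the 8 h controls and 14.9 and 16.4 in the 8 h SE libraries. Both 8 h SE libraries stood above the other 8, and the difference was 1.37 ± 0.45 (adjusted p = 0.683). The transcription factor gene Stat3 ran from 40.2, 43.6 and 41.6 CPM in 8 h controls to 64.9 and 66.5 in 8 h SE, with 38.5 and 41.3 in 1 h controls and 42.4, 45.3 and 42.4 in 1 h SE. Its difference was 0.53 ± 0.18 (adjusted p = 0.683), that of the phosphatase gene Ptpn11 was 0.56 ± 0.25 and that of the acute phase factor Cebpa was 0.86 ± 0.38.

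Of 24 reactive astrocyte genes 0 passed, 4 had a positive difference at an unadjusted p under 0.05, Osmr, Gfap, Vim and Aspg, and 0 a negative one, with a median of 0.22. The shares of all genes tested were 3.29% positive and 3.61% negative. Among 20 homeostatic astrocyte genes 0 passed and 14 had a negative difference, with a median of -0.10. Gfap, the astrocyte intermediate filament, had 275 and 289 CPM in the 1 h controls, 318, 303 and 288 in the 1 h SE libraries, 274, 333 and 379 in the 8 h controls and 561 and 527 in the 8 h SE libraries. The 2 SE libraries at 8 h stood apart from the other 8, and the difference was 0.63 ± 0.20 (adjusted p = 0.683). Vim, another intermediate filament, had a difference of 0.64 ± 0.27 and Aspg, an asparaginase gene with few counts, 2.20 ± 0.81. In whole tissue, more cells of a type and more RNA per cell cannot be told apart. Of 9 cytokine and chemokine genes, 1 had an unadjusted p under 0.05, Cxcl1, a neutrophil chemoattractant, at -3.19 ± 1.26 and under 1 CPM in every library. The receptor genes Il1r1 (0.37 ± 0.32) and Tnfrsf1a (0.51 ± 0.48) did not reach that level.

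**Figure D4:**
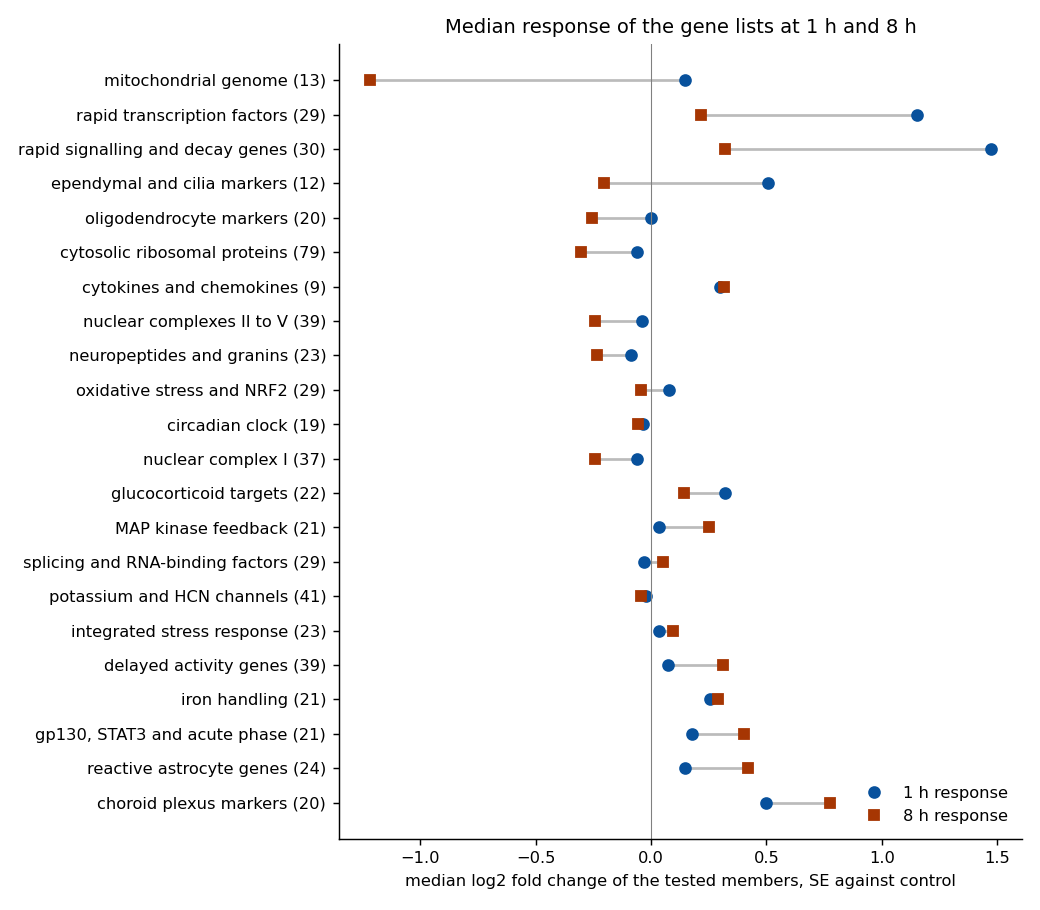
Median log2 fold change of SE over control at 1 h (circles) and at 8 h (squares) over the tested members of 22 gene lists, with the number tested in parentheses and lists ordered by their median difference. The rapid lists move from 1.15 and 1.48 at 1 h to 0.22 and 0.32 at 8 h, and the mitochondrial genome from 0.15 to -1.22.

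Transcripts of the mitochondrial genome, which encodes core subunits of the respiratory chain, had mostly negative differences, with their lowest levels in the 8 h SE libraries. Of 13 tested, 0 passed, 10 had a negative difference at an unadjusted p under 0.05 and 0 a positive one, with a median of -1.52, from 0.15 at 1 h to -1.22 at 8 h. The likelihood ratio test called 4 of them lower and DESeq2 5. Their summed level was 62729 to 87259.7 CPM in 1 h controls, 71815 to 111693 in 1 h SE, 67579 to 116331 in 8 h controls and 30898 to 36864 in 8 h SE. The complex I subunit gene mt-Nd1 had 9336 and 12007 CPM in the 1 h controls, 16209, 10729 and 11048 in the 1 h SE libraries, 10184, 16351 and 21911 in the 8 h controls and 4357 and 5433 in the 8 h SE libraries. Both 8 h SE libraries lay below all 8 others, and the difference was -1.97 ± 0.41 (adjusted p = 0.324). Those of mt-Nd2 (-2.04 ± 0.42), mt-Nd5 (-2.07 ± 0.41) and mt-Cytb of complex III (-1.70 ± 0.38) were of like size, with adjusted p values of 0.324, 0.281 and 0.391. The mitochondrial tRNA gene mt-Tw differed in pattern, at 6.2 and 8.14 CPM in 1 h controls, 16.5, 18.2 and 19.3 in 1 h SE, 5.59, 5.67 and 4.43 in 8 h controls and 3.33 and 3.83 in 8 h SE. It was higher in SE at 1 h (adjusted p = 0.0291), and its difference was -1.84 ± 0.34 (adjusted p = 0.182). Nuclear copies of mitochondrial sequence can share these reads, so the values are uncertain.

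Nuclear genes of the same complexes had medians nearer 0. Of 37 complex I genes 0 passed, with 1 positive, Ndufv1 (0.56 ± 0.19), and 1 negative, Ndufs6 (-1.37 ± 0.42), at an unadjusted p under 0.05 and a median of -0.08. Of 39 genes of complexes II to V 0 passed, with 1 negative at that level, Uqcrb of complex III (-1.08 ± 0.25), and a median of -0.16. Uqcrb had 65.1 and 70.9 CPM in the 1 h controls, 82.4, 57.5 and 70.3 in the 1 h SE libraries, 57.7, 76.6 and 67.3 in the 8 h controls and 29.4 and 35.5 in the 8 h SE libraries, with both 8 h SE libraries below all others. Of 79 cytosolic ribosomal protein genes 0 passed and 56 had a negative difference, with a median of -0.20. At an unadjusted p under 0.05, 12 were negative and 1 positive, Rplp2 (0.48), against 3.61% and 3.29% of all genes tested. Rpl21, of the large subunit, had 68.7 and 63.8 CPM in the 1 h controls, 75.9, 68.6 and 77 in the 1 h SE libraries, 61.1, 103 and 119 in the 8 h controls and 28.1 and 31.4 in the 8 h SE libraries. The G317 controls at 8 h were the highest libraries and the SE libraries the lowest. Its difference was -1.81 ± 0.32 (adjusted p = 0.169) and its 8 h response -1.66 (adjusted p = 0.0435). Small-subunit genes Rps24 (-0.84 ± 0.21) and Rps6 (-0.58 ± 0.18) and the large-subunit gene Rpl31 (-0.94 ± 0.31) were also negative at unadjusted p = 0.00124, 0.00623 and 0.00878. Ribosomal protein genes have many processed copies in the genome, and how the counting shared such reads makes these values uncertain.

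Of 23 integrated stress response genes 0 passed, with 1 negative at an unadjusted p under 0.05 and 1 positive, near the 3.61% and 3.29% of all genes. The negative one was Ppp1r15a, or Gadd34, which recruits the phosphatase of eIF2 alpha, with 10.9 and 9.02 CPM in the 1 h controls, 24.6, 71.7 and 63.5 in the 1 h SE libraries, 9.31, 12.9 and 14.3 in the 8 h controls and 10.8 and 13.1 in the 8 h SE libraries. Its 8 h groups overlapped, and the difference was -2.41 ± 0.53 (adjusted p = 0.391). The positive one was Cebpg, a partner of ATF4, at 0.98 ± 0.25 (adjusted p = 0.576), with 27.8, 26.8 and 28.8 CPM in 1 h SE below both 1 h controls and 36.7 and 35.1 in 8 h SE above all 8 h controls. Of 29 oxidative stress and NRF2 genes 0 passed, with Cat, encoding catalase (-0.88 ± 0.24), and Gstm1, a glutathione transferase gene (-0.58 ± 0.27), negative and the small MAF factor gene Mafg (0.79 ± 0.26) positive at an unadjusted p under 0.05, again near the shares of all genes. With batch as a covariate, however, 6 of these 29 were called lower and 1 higher, against 2.17% and 1.44% of all genes. Of 22 glucocorticoid targets 1 passed, Dusp1, 3 were negative and 3 positive at an unadjusted p under 0.05. The negative ones were Dusp1, Per1 and Errfi1. The positive ones were Cdkn1a, Plin4 (1.63) and the FKBP co-chaperone gene Fkbp5 (0.68 ± 0.29). Fkbp5 had 61.3, 38 and 40.1 CPM in 8 h controls and 70.7 and 99.9 in 8 h SE, with 53.1 and 52 and 61.8, 64 and 55.2 in the 1 h groups.

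Of 19 circadian clock genes 0 passed, 5 were negative and 2 positive at an unadjusted p under 0.05, with a median of -0.13. Over all genes tested, 3.61% were negative and 3.29% positive at that level. Ciart, a repressor of the clock's CLOCK and BMAL1 activators, had 7.86 and 7.99 CPM in the 1 h controls, 16.4, 38.1 and 37.3 in the 1 h SE libraries, 10.6, 16.8 and 17.6 in the 8 h controls and 2.78 and 11.4 in the 8 h SE libraries. It was higher in all 1 h SE libraries than in 1 h controls, and the 8 h SE libraries overlapped the 8 h controls, with a difference of -2.86 ± 0.65 (adjusted p = 0.402). The positive ones were the repressor genes Per3 (0.50) and Cry1 (0.75). Per1, a core repressor that is also an immediate early gene, had a difference of -1.21 ± 0.36, Rorb, a nuclear receptor gene, -0.68 ± 0.24, Hlf, a clock output factor gene, -0.45 ± 0.17 and Bhlhe40, a repressor gene also induced by activity, -0.53. The times of day of the 1 h and 8 h samples were not compared.

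Marker lists of several cell types had negative medians, among them oligodendrocytes, ependyma, blood, vessel wall and meninges, and thalamus and cortex. Those of microglia (-0.18), interneurons (-0.12) and homeostatic astrocytes (-0.10) were also negative. The medians of endothelial (0.10), dentate granule cell (0.09) and CA1 and CA3 pyramidal cell markers (0.13) were positive. Over all genes tested, 3.61% were lower and 3.29% higher at an unadjusted p under 0.05, beside which the counts below stand. Of 20 oligodendrocyte markers 0 passed and 4 were negative at an unadjusted p under 0.05, with a median of -0.28. These were Opalin (-0.99 ± 0.24), Trf (-1.72 ± 0.54), Olig2 (-0.74 ± 0.30) and Ermn (-0.58 ± 0.24). Trf had few counts, at most 3.34 CPM in any library. The summed level of the list was 8284 to 9152 CPM in 8 h controls, 6519 to 7766 in 8 h SE, 6732 to 7809 in 1 h controls and 6950.2 to 7698 in 1 h SE. Of 12 ependymal and cilia markers 0 passed and 5 were negative at an unadjusted p under 0.05, Rsph1 (-1.23), Cfap126 (-2.08 ± 0.72), Dnah5 (-0.98 ± 0.36), Ccdc153 (-2.01 ± 0.74) and Fam183b (-1.51 ± 0.59), with a list median of -0.98. Their summed level was 68.3 to 98.6 CPM in 1 h controls, 84.1 to 124 in 1 h SE, 52.8 to 104 in 8 h controls and 58.3 to 59.2 in 8 h SE. Ccdc153 and Fam183b had few counts, at most 7.98 and 7.00 CPM in any library. Of 6 blood cell markers tested 0 passed, 6 had a negative difference, 2 at an unadjusted p under 0.05, and the median was -1.36. Their summed level was 38.3 to 86.9 CPM in 1 h controls, 94.2 to 149 in 1 h SE, 63 to 96.1 in 8 h controls and 60.8 to 73.7 in 8 h SE. Of 20 mural, meningeal and fibroblast markers 0 passed, 18 were below 0, 4 of them at that level, with a median of -0.44. Of 15 thalamic and cortical markers 0 passed, 14 were below 0, 1 at that level, with a median of -0.34. Of 20 choroid plexus markers 16 had a positive difference and 4 a negative one, with a median of 0.33, which was -0.15 with batch as a covariate. Of these, 1 was positive at an unadjusted p under 0.05, the water channel gene Aqp1 (1.56 ± 0.62), and 0 passed. The fewest choroid transcripts were held by 8 h controls 1 and 3. The part of these tissues' RNA in the other lists was not tested. In the other lists of which 0 members passed, the likelihood ratio test called 1 ribosomal, 1 stress response and 1 clock gene and DESeq2 1 ribosomal, 1 stress response and 1 complex II to V gene, all lower, and neither called any member of the rest.

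No gene passed in the potassium channel, splicing and iron lists. At an unadjusted p under 0.05, 3.61% of all genes tested were lower and 3.29% higher. Of 41 genes in the potassium channel list 3 were negative at that level, among them Kcnip4 (-0.73 ± 0.26) and Kcnh7 (-0.64 ± 0.24), and 1 positive, Kcna4 (0.78 ± 0.30). Of 29 splicing and RNA-binding factor genes 2 were positive at that level, the kinase gene Clk1 and the splicing factor gene Srsf7 (0.58 ± 0.25), and 0 negative. Clk1, which phosphorylates SR splicing factors, had 154 and 161 CPM in the 1 h controls, 79, 96.6 and 90.5 in the 1 h SE libraries, 140.3, 102 and 108 in the 8 h controls and 121 and 125 in the 8 h SE libraries. It was lower in every 1 h SE library than in the 1 h controls and overlapped at 8 h, and the difference was 0.91 ± 0.21 (adjusted p = 0.467). Of 21 iron handling genes 1 was positive at an unadjusted p under 0.05, the metal transporter gene Slc11a2 (0.75 ± 0.24), and 2 negative, Trf and Alas2 (-1.43 ± 0.66). Trf and Alas2 had few counts, at most 3.34 and 5.01 CPM in any library. Tfrc, the transferrin receptor gene, had 0.46 ± 0.25 (unadjusted p = 0.0921).

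Outside these lists, the positive differences with the smallest p values came either from the 1 h or from the 8 h libraries. In Gm17388 (difference 2.49 ± 0.43, adjusted p = 0.163), 9130020K20Rik (2.79 ± 0.67) and RP23-395H6.2 (2.24 ± 0.58), genes without an assigned function here, the 1 h response was negative (-2.01, -2.31 and -2.25) and the 8 h response small (0.47, 0.48 and -0.01). Within G511 their 1 h responses were -2.61, -2.60 and -2.42, and within G369 they were smaller in size, at -1.35, -1.50 and -1.94. Gm17388 had 18.2 and 9.12 CPM in the 1 h controls, 3.72, 3.37 and 2.94 in the 1 h SE libraries, 6.98, 5.41 and 5.54 in the 8 h controls and 8.11 and 8.55 in the 8 h SE libraries, with all 3 SE libraries at 1 h below the other 7. In Coil, encoding the Cajal body protein coilin (1.84 ± 0.43), Dgcr2 (0.91 ± 0.23), the spliceosomal protein gene Snrpb (0.91 ± 0.24) and Camkk1, a calcium/calmodulin-dependent kinase kinase (0.70 ± 0.18), the 8 h response was the larger, at 1.54, 0.78, 0.67 and 0.68. Camkk1 had 145 and 130.2 CPM in the 1 h controls, 135, 132 and 142 in the 1 h SE libraries, 128, 106 and 119 in the 8 h controls and 175 and 201 in the 8 h SE libraries. The 8 h SE libraries were the highest of the 10 and the 1 h groups overlapped. The glucose-6-phosphate transporter gene Slc37a4 (1.63 ± 0.41), the phosphatase gene Ppm1f (1.01 ± 0.27) and the intramembrane protease gene Sppl3 (0.97 ± 0.26) had 1 h responses under 0 and 8 h responses above 0. Their 1 h responses rested largely on 1 h control 1, the higher of the 2 controls in each. Within G511, which holds it, they were -1.33, -0.55 and -0.61, and within G369 -0.32, -0.13 and 0.02. Coro1b, with 7.43 ± 1.87, rested on 1 library, 1 h control 1, at 4.85 CPM, with the others at most 1.45 CPM. The unconventional myosin gene Myo1d was negative at -1.47 ± 0.29 (adjusted p = 0.281).

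With batch as a covariate, 363 genes had a lower response at 8 h than at 1 h (2.17% of 16736) and 241 a higher one (1.44%) at an adjusted p under 0.05. The 8 h response then came from the 2 controls and 2 SE libraries of G317 alone. Of the 363 genes, 327 had a larger 8 h than 1 h response in size, and so had 233 of the 241. In the fit without batch 206 of the 363 and 105 of the 241 had an unadjusted p under 0.05, and 0 of the 604 had the opposite sign. The genes called lower had a median summed exon length of 2153.5 bases and those called higher 5694, against 3540 over all genes tested. The part of gene length in these calls was not tested. The rapid transcription factors had 9 lower calls and 1 higher, Klf10, and the rapid signalling and decay genes 9 lower, with adjusted p = 2.43e-05 for Dusp1 and 0.00258 for Cyr61. Delayed genes had 4 higher calls, Bdnf (1.10, adjusted p = 0.021), Nptx2 (1.45), Homer1 (0.62) and Sorcs3 (0.71), and 1 lower, Npy (-1.06). Osmr (1.59) and Ptpn11 (0.63) were higher among gp130 and STAT3 genes, and Gfap (0.53) and Osmr among reactive astrocyte genes. Lower calls numbered 8 of 13 in the mitochondrial genome, 5 of 37 in nuclear complex I (Ndufa3, Ndufa5, Ndufa12, Ndufs6 and Ndufv3), 7 of 39 in complexes II to V and 17 of 79 among ribosomal protein genes.

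Within batches the 1 h response of Dusp1 was 2.86 in G511 and 2.78 in G369, and the 8 h response 0.12 in G317. Those of Cyr61 were 4.12, 4.15 and 0.90. Npas4 had 5.80 and 4.39 at 1 h and 0.25 at 8 h, and Egr1 2.65, 2.08 and -0.01. In these genes both batches at 1 h exceeded the 8 h batch. Nptx2 had -0.15 in G511, 0.69 in G369 and 1.79 in G317, and mt-Nd1 0.24, 0.14 and -1.96. No batch holds both responses, so a difference between times cannot be told apart from a difference in how the batches measured a response.

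**Figure D5:**
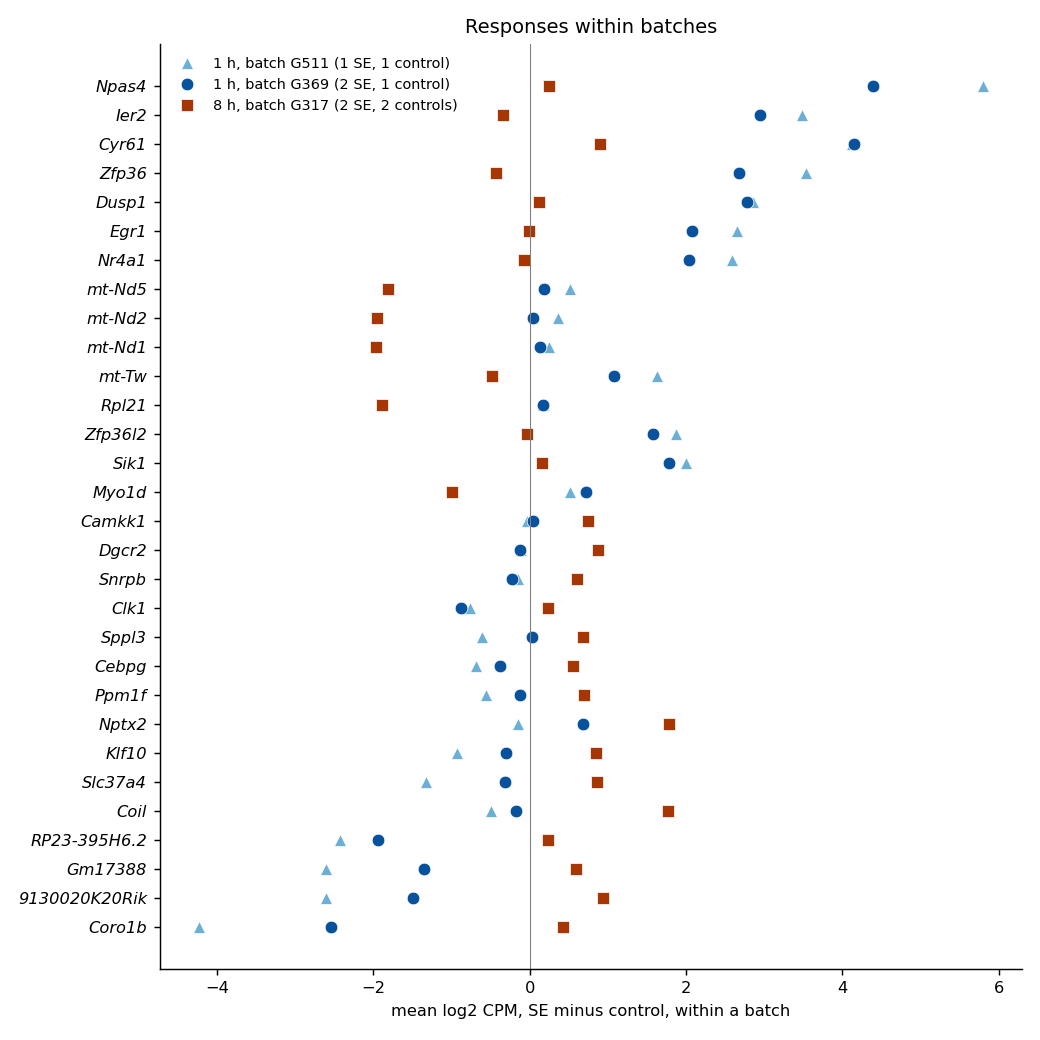
Mean log2 CPM of SE minus control within each batch for the 30 genes with the smallest p, 15 in each direction, as triangles for 1 h in G511, circles for 1 h in G369 and squares for 8 h in G317. For Dusp1 the 1 h values of 2.86 and 2.78 lie far from the 8 h value of 0.12, and for mt-Nd1 the 8 h value of -1.96 lies far from the 1 h values of 0.24 and 0.14.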

How the data were processed

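Poly(A) RNA from left hippocampus was sequenced in a stranded protocol. The authors trimmed reads with BBDuk, aligned them with HISAT2 2.1.0 and counted reads per gene with HTSeq, and the deposited values are raw counts per gene for 43629 identifiers. Symbols came from GENCODE vM1, and positions in NCBIM37 from it may not be those used for counting, since some identifiers are of later releases. Per-gene exon length was taken from the same annotation. Groups followed the labels.

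The 10 libraries were fitted in 1 model of 4 groups with no covariate (edgeR 4.0.16, R 4.3.3), with filterByExpr, TMM factors and quasi-likelihood tests. P-values were adjusted by Benjamini-Hochberg over all 16736 genes, threshold 0.05. CPM was computed from TMM-scaled library sizes, with a prior count of 1 for log2 values. DESeq2 1.42.0, likelihood ratio tests, other scalings and filters, all 19 libraries, batch, sex, replicate number, thinning and leaving out each library were alternatives. Scripts were checked on simulated data. Named genes were the 15 with the smallest p in each direction, up to 4 per described list, and those the study names, plus genes outside the rule that make up a small count or a set in the text (such as Ier5, Ptgs2, Lcn2, Npy, Rsph1 and Plin4), chosen after their values were seen. The comparison, genes and lists were chosen with earlier results of these data known. Promoter sequences came from RefSeq (GRCm38.p6), in which both printed genes were found.

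Replicate numbers did not pair the libraries, and no 2 libraries were duplicates. The small RNA libraries and the 9 libraries of later times were not analysed here except in the fit of all 19. Single values of a few list members are not reported here.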

Additional observations from a re-analysis of the deposited data

Results flagged for a closer look

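The response to SE differed between 1 h and 8 h, by the test of the difference itself, for Dusp1 (log2 difference -2.55, adjusted p = 0.00202) and Cyr61 (log2 difference -3.28, adjusted p = 0.00202) in edgeR's quasi-likelihood test.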

How the results depend on the processing

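Dusp1 and Cyr61 passed under all 22 alternatives, with adjusted p values up to 0.0305. The number of genes with a different response at 8 h, 2 with the reported settings, was 36 with likelihood ratio tests, 34 with DESeq2, 91 without a filter on low counts, 28 with all 19 libraries, 604 with batch as a covariate, 279 in batches G369 and G317 alone, and 751 with batch and at least 10 counts in every library, a setting chosen after seeing the data. It was 2 to 187 when each library was left out in turn. With the replicate block it was 2. The number called at 1 h, 32, was 55, 53, 139, 60 and 60 with likelihood ratio tests, DESeq2, no filter, all 19 libraries and batch, and 8 to 133 when leaving out a library. The number called at 8 h, 4, was 162, 247, 332, 383 and 2297 in the same order, 2 with legacy quasi-likelihood fits, 2292 in batches G369 and G317, 8 after thinning to the smallest library, 0 with a choroid plexus score as a covariate, chosen after seeing the data, and 0 to 1637 when leaving out a library. With the replicate block, 17 genes passed at 1 h and 0 at 8 h. The causes were not tested, and the fits that leave libraries out also hold fewer samples. Numbers shared between groups did not pair the libraries: correlations of same-numbered deviations ranged from -0.18 to 0.11.

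For the 8 h minus 1 h difference of the named genes, in which Dusp1 and Cyr61 were called, 2331 values over all alternatives kept their direction and side of the threshold, 241 passed where they had not, and 0 reversed or lost a call. The 8 h calls of Nptx2, Cdkn1a and Rpl21 were lost wherever 0 genes passed at 8 h: with the replicate block, with the choroid plexus score, and without 8 h control 3, 8 h SE 2 or 1 h SE 2. With 2 or 3 libraries per group, an adjusted p above 0.05 does not show that the responses at the 2 times were alike.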
